A study of Mus musculus with 2 samples.

Results

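Mir143, Mir145a and Mir145b are 3 of the 2202 miRNA genes whose reads were counted in gastrocnemius, a calf muscle built mainly of fast fibres. They were chosen by name, as the gene rows that carry these symbols in the GENCODE M21 annotation, and all 3 were found. The tissue came from male B6CASTF1/J mice 25 days old, the hybrid offspring of a C57BL/6J and a CAST parent, with no treatment or engineered allele in the labels. There were 2 libraries in 1 group, labelled as biological replicates 1 and 2 and as animals 03 and 04. Since their donor identifier is the same, it is not certain that the animals were separate, and the SDs and tests here may describe technical spread only.

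MiR-143 and miR-145 are the classic miRNAs of smooth muscle. They are cut from 1 shared primary transcript, which serum response factor and its coactivator myocardin switch on, and they are abundant in the smooth muscle of arteries and hollow organs and in pericytes, the contractile cells that wrap capillaries. There they favour the contractile over the proliferative state, miR-145 through targets such as Klf4 and Klf5 and miR-143 through targets such as Elk1. Muscle fibres are not their usual source. In bulk tissue such as this, a different number of such cells and a different amount of miRNA per cell cannot be told apart.

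All 3 genes lie on the minus strand of chromosome 18 (mm10). Mir143, gene ENSMUSG00000065445.3, spans 61649196 to 61649258, a hairpin of 63 bases. Mir145a, gene ENSMUSG00000065592.2, spans 61647825 to 61647894, a hairpin of 70 bases that follows Mir143 after 1301 bases in the direction of transcription. Carmn, a long non-coding RNA known from smooth muscle and the heart, is the transcript unit around them. Its RefSeq gene body on GRCm38.p6, from 61645878 to 61665538, contains both hairpins, whereas the GENCODE M21 gene runs from 61649625 to 61665537 and stops 366 bases short of Mir143. In GENCODE the hairpins therefore have no host gene on their strand, and no gene overlaps them on the opposite strand. Mir145b, gene ENSMUSG00000098366.1, a second hairpin of the miR-145 kind, stands alone 7.373 Mb away, from 69022199 to 69022273, with 75 bases and outside any annotated host.

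Whether reads could be confused among the members was read from the hairpins. Mir145a and Mir145b have 17 consecutive bases in common, at positions 7 to 23 of the Mir145a hairpin and 17 to 33 of Mir145b, counted from the 5′ end. No stretch of 18 bases from Mir143 or Mir145a occurred in a transcript of another gene among 141767 GENCODE transcripts searched on both strands. The closest annotated miRNA hairpins to Mir143 shared no more than 11 bases with it. Of the 58 stretches of 18 bases in Mir145b, 2 were found elsewhere, in Arhgap32 and Fubp1. None of the 3 hairpins shared a stretch of 20 bases with another annotated miRNA gene. Sequence outside annotated transcripts was not searched, and how the aligner treated mismatches is not given in the sources used here.

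By reads placed at 1 locus, Mir143 was among the most abundant miRNA genes counted in the muscle. Mir145a was moderately abundant and Mir145b was at the limit of detection. Mir143 had 82162 counts in replicate 1 and 148608 in replicate 2. As CPM, counts scaled to a common total of gene counts, these are 55093 (exact 95% interval 54727 to 55460) and 73266 (72908 to 73626). Roughly, 1 read in 18.2 and 1 in 13.6 of all gene counts came from Mir143. Mir145a had 5610 and 11001 counts, or 3762 CPM (3664 to 3861) and 5424 CPM (5323 to 5526). For both genes replicate 2 was the higher library, and the counting intervals of the libraries did not overlap. The mean over the libraries was 64179 ± 12850 CPM for Mir143 and 4593 ± 1175 CPM for Mir145a (SD, n = 2).

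Mir145b had 1 count in each library. That is 0.671 CPM in replicate 1 (exact 95% interval 0.0170 to 3.74) and 0.493 CPM in replicate 2 (0.0125 to 2.75). A count of 0 would still allow 3 counts, which is 2.01 CPM and 1.48 CPM, above the 1 count seen. At this depth the level of Mir145b therefore cannot be told from that of a gene with 0 counts. Whether these single reads were placed rightly was not tested. Together the 3 genes held 5.89% (exact 95% interval 5.85 to 5.92) of gene counts in replicate 1 and 7.87% (7.83 to 7.91) in replicate 2. Mir145a made up 6.39% and 6.89% of that sum.

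These levels rest on reads placed at 1 locus. Reads that aligned to several loci were 69.8% and 71.8% of all reads and are in no gene row. Over all reads, Mir143 held 1.10% in replicate 1 and 1.51% in replicate 2, and Mir145a 0.0749% and 0.112%. The rank order below compares Mir143 and Mir145a with genes that may have lost reads in this way. Mir23b and Mir27b, for example, each have 20 consecutive bases in common with another miRNA gene, whereas Mir143 and Mir145a do not. No read was counted on the strand opposite to any of the members, and the column without strand held the same counts for each of them.

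In the order of levels Mir143 held rank 4 by mean CPM, but its place differed between the libraries, with rank 6 in replicate 1 and rank 3 in replicate 2. Mir378a, the miRNA of the Ppargc1b intron, and Mir126a, the miRNA of endothelial cells, were above it in both libraries. The lowest value of Mir126a, 78275 CPM, exceeded the highest value of Mir143. The ranges of Mir23b (65080 and 65180 CPM), Mir23a (56667 and 67128 CPM) and Mirlet7g (62346 and 53968 CPM) overlapped that of Mir143. The order among these 4 genes is therefore within the spread of the libraries.

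Mir145a stood at rank 32 by mean CPM, at 36 and 30 in the single libraries. Its neighbours above were Mir27b (4702 and 5536 CPM) and Mir10a (4816 and 4902 CPM), and those below were Mirlet7f-2 (4723 and 4128 CPM) and Mir744 (4409 and 4023 CPM). All 4 overlapped its range, as did 8 genes in total. In replicate 1 each of these 4 neighbours was above Mir145a. In replicate 2 only Mir27b was above it.

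Between the libraries both detectable members were higher in replicate 2. After scaling by TMM, which centres the libraries on the bulk of genes, Mir143 was 1.34-fold higher (exact 95% interval 1.33 to 1.35), a log2 ratio of 0.42. Mir145a was 1.45-fold higher, a log2 ratio of 0.54 (exact 95% interval 0.49 to 0.58). An exact binomial test with Benjamini-Hochberg adjustment over 313 genes gave Mir145a an adjusted p of 5.22e-117, and the p of Mir143 was too small to be held as a number. This test knows counting error only and compares 2 libraries, not conditions. By it replicate 2 was the higher library for 19.8% of the 313 genes and the lower one for 18.5%, so 38.3% differed in either direction. Where both libraries held 1000 counts or more, as they did for Mir143, Mir145a and 73 genes in total, 28.8% were higher. Another 35 of these 73 were lower, so 76.7% passed in either direction. A pass at the depth of Mir143 and Mir145a therefore sets them apart from few other genes, and Mir145b had too few counts to be tested.

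A test that adds the spread between the libraries had to take that spread from the same 2 libraries it compared, so it could hardly pass any gene and says little of either member (adjusted p = 1 for both, edgeR exact negative binomial test; unadjusted p = 0.254 for Mir143 and 0.147 for Mir145a by the same exact test). It called 0 of the 313 genes, and 15 fell under an unadjusted p of 0.05, with a biological coefficient of variation of 18%. Whether Mir143 and Mir145a differ between the libraries by more than animals usually do cannot be told from these data.

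The size of the ratios stood high among genes of comparable depth. The median log2 ratio over the tested genes was 0.05, and the median absolute value among the 73 well-counted genes was 0.20. Of these 73, 1 had a higher ratio than Mir145a, namely Mir29a (1182 and 2584 counts, log2 ratio 0.70), which was named after its value was seen. Above Mir143 there were 4 of the 73. Of the 28 genes that reached 10000 counts in both libraries, only Mir22 (17723 and 32538 counts, log2 ratio 0.44) was above Mir143. These places describe the 2 libraries and carry no test.

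**Figure D1:**
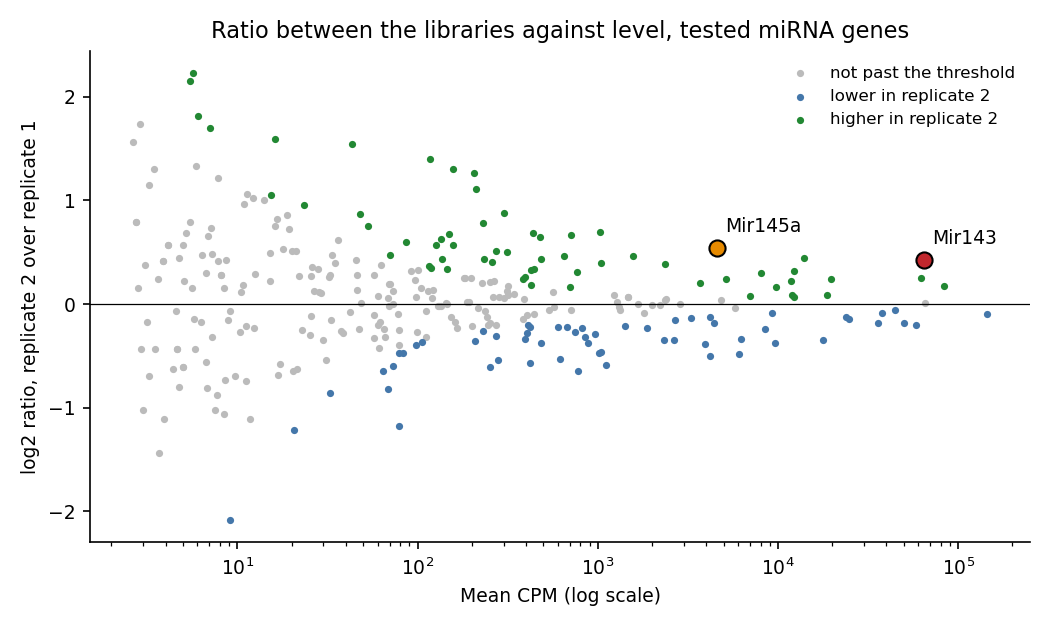
Log2 ratio of replicate 2 over replicate 1 after TMM against mean CPM on a log axis, 1 point per tested miRNA gene with counts in each library; green and blue points were higher and lower by the exact binomial test. Mir143 at 0.42 and Mir145a at 0.54 lie at the upper edge of the points for their levels, on the right where ratios scatter least.

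In shares of gene counts, Mir143 was the gene that differed most between the libraries. It held 5.51% in replicate 1 and 7.33% in replicate 2, a difference of 1.82 percentage points. The shares that were higher in replicate 2 summed to a difference of 6.43 points, and 28.2% of that was Mir143 alone. Next came Mir378a, with a difference of -1.07 points for replicate 2 minus replicate 1, and Mir23a with 1.05 points. Mir126a had a difference of 0.925 points. The share of Mir145a was higher by 0.166 points, and 7 genes had a larger positive difference.

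Mir143 and Mir145a are parts of 1 primary transcript, and their ratio within a library needs no scaling between libraries. In counts, Mir143 exceeded Mir145a 14.6-fold in replicate 1 (exact 95% interval 14.3 to 15.0) and 13.5-fold in replicate 2 (13.2 to 13.8). Whether library preparation captured both miRNAs equally was not tested, so the ratio of counts need not be that of the molecules. On the log2 scale the ratio was 3.87 and 3.76. Divided by hairpin length, which a mature miRNA read does not depend on, the excess was 16.3-fold and 15.0-fold. The ratio was slightly lower in replicate 2, by a factor of 0.922 (exact 95% interval 0.892 to 0.954, Fisher's exact test, two-sided, p = 1.85e-06, n = 2 libraries). This difference of -0.12 on the log2 scale is beyond counting error, while spread between animals cannot be separated from it with 1 ratio per library. It was smaller than the log2 ratio of either gene between the libraries.

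Other neighbouring hairpins give a scale for these values. Of pairs of adjacent miRNA genes on 1 strand within 10 kb, 58 had at least 100 counts of each gene in each library. Their median log2 ratio of the higher over the lower gene was 2.46, and 18 pairs were more unequal than Mir143 and Mir145a. In 30 of the 58 pairs neither gene had a 20-base stretch in common with another annotated miRNA gene. Among those the median was 1.89, and 9 were more unequal. Directly beside the pair in this order stood Mir369 over Mir412 (log2 ratio 3.90), in the large imprinted miRNA cluster of chromosome 12, and Mir23b over Mir27b (3.67). Many of the 58 and of the 30 pairs lie in that chromosome 12 cluster, and some genes recur in several pairs. The medians and counts therefore lean on that cluster. An excess of the size seen for Mir143 over Mir145a was within the range of these pairs.

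The ratio of the pair differed less between the libraries than that of most other pairs. Its log2 difference was 0.12 in size, where the median was 0.27 over the 58 pairs and 0.31 over the 30. A larger difference was found in 45 of 58 pairs and in 23 of 30. Many of those pairs hold genes with far fewer counts, whose ratios carry more counting error. No test was run over pairs, many of which lie in the chromosome 12 cluster.

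**Figure D2:**
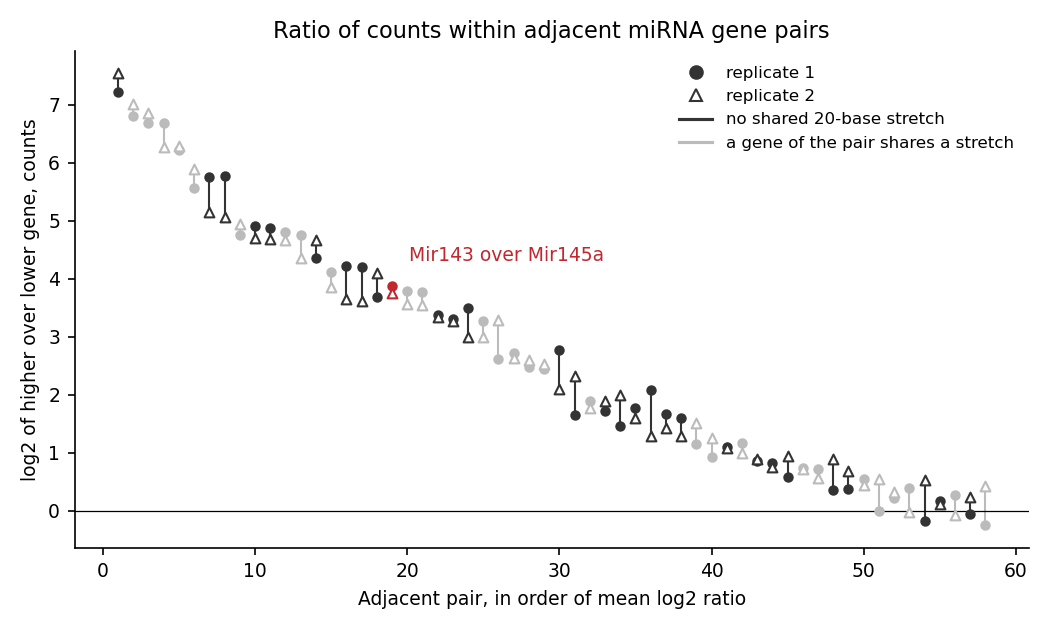
Log2 ratio of counts of the higher over the lower gene for 58 adjacent miRNA gene pairs in order of their mean; circles are replicate 1, triangles replicate 2, and grey marks pairs with a gene that has 20 consecutive bases in common with some other miRNA gene. Mir143 over Mir145a, in red, is at place 19 with 3.87 and 3.76, and the line between its points is short.

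The nearest well-counted gene other than the members differed in the other direction. Within 1 Mb of Mir143 the annotation has 7 further miRNA genes, Mir145a among them. Mir378a, 251295 bases away on the same strand and overlapped by Gm25301 on the other, had 223560 and 282263 counts. Its log2 ratio was -0.10, lower in replicate 2 (adjusted p = 1.40e-122, exact binomial test), opposite to Mir143 and Mir145a. Of the others, Mir6983 had 0 and 1 counts, and Mir5107, Mir7220, Mir6982 and Gm25301 had none. Near Mir145b, Mir7219 had 0 and 4 counts and Mir6356 none. On chromosome 18 as a whole 16 of 57 miRNA genes had a count and 9 were tested. Of these 9, 2 were higher (Mir143 and Mir145a) and 2 were lower, beside 19.8% and 18.5% of all tested genes.

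The genes whose ratio between the libraries was closest to that of Mir143, among 72 others counted 1000 times or more in both libraries, were Mir22, Mir369 and Mir434. Mir22 differed from it by 0.02 in log2 ratio. Mir369 (1346 and 2388 counts) differed by 0.03 and Mir434 (3076 and 5426 counts) by 0.04. With 2 libraries this likeness is a distance between single numbers, and 5 of the 72 genes were within 0.1.

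Other miRNAs tied to the state of smooth muscle were in part higher and in part lower. The list held 16 genes, among them Mir21a and Mir221, which are known to rise when vascular smooth muscle proliferates. Replicate 2 had the higher level for 4 of them and the lower for 3, while 9 missed the threshold, beside 19.8% and 18.5% of all genes. The median log2 ratio was 0.14, beside 0.05 over all tested genes, and the list summed to 3.46% and 3.73% of gene counts. Of the 16 genes 5 have 20 consecutive bases in common with another miRNA gene, so reads that fit both are missing here. Mir322 (10882 and 13507 CPM, log2 ratio 0.32) and Mir21a (10894 and 12583 CPM, 0.22) were higher. Mir100, which restrains mTOR, was lower (9162 and 7716 CPM, -0.24). Mir195a, of the miR-15 family, had 2018 and 1993 CPM. Mir221 and Mir222, made from a single transcript, had only 350 and 549 and 22 and 49 counts. Mir143 exceeded Mir21a 5.06-fold and 5.82-fold.

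Markers of other cells in the muscle also differed between the libraries. Mir126a, the defining endothelial miRNA gene, was counted 116735 and 177529 times and passed the test (log2 ratio 0.17), whereas Mir126b of the same list had 0 and 1 counts. The ratio of Mir143 to Mir126a was 0.704 in replicate 1 and 0.837 in replicate 2. Mir206, the miRNA gene of muscle fibres and their precursors, was lower in replicate 2 (53367 and 46543 CPM, log2 ratio -0.19). Mir143 thus had 1.03 times the counts of Mir206 in replicate 1 and 1.57 times in replicate 2. Mir143, Mir145a and Mir126a were thus higher in the library in which Mir206 was lower. Mir206 does not stand for the striated muscle list as a whole. The tested genes of that list had calls in both directions. Their median log2 ratio of 0.41 is the value of Mir208a, which had only 5 and 9 counts.

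The striated muscle list had calls in both directions. Among 9 tested genes, Mir499 and Mir208b, both inside myosin genes, made up the 2 higher ones. The 3 lower ones were Mir1a-2, Mir206 and Mir486, and 4 missed the threshold, beside 19.8% higher and 18.5% lower over all tested genes. The median log2 ratio of the tested genes was 0.41, whereas the sum of the list, most of which is Mir206, was lower in replicate 2 with 4.84% of gene counts against 5.51%. Mir486 had 823 and 676 CPM, Mir499 335 and 534 CPM, and Mir1a-2 443 and 382 CPM, while Mir133c was at 0 in both libraries. Of the 11 listed genes 6, Mir486 and Mir1a-2 among them, have 20 consecutive bases in common with another miRNA gene. Reads that fit both genes are missing from these values, and the calls, median and sum of the list rest on what is left.

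Blood and connective tissue markers had calls in both directions too, to be read beside the same 19.8% and 18.5% of all tested genes and the 76.7% called among well-counted ones. Both erythroid genes were higher in replicate 2, Mir451a with 201 and 587 counts and Mir144 with 59 and 134, and their sum was 0.0174% and 0.0355% of gene counts. Of the 6 leukocyte genes 2 were higher (Mir223 and Mir142) and 4 were lower (Mir150, Mir155, Mir342 and Mir146), with a median log2 ratio of -0.38 and sums of 0.412% and 0.324%. Mir150, of mature lymphocytes, had 1179 and 844 CPM, and Mir155, of activated immune cells, 1060 and 863 CPM. Of the fibroblast list 4 of 5 genes were tested. Mir21a and Mir199b were higher, Mir214 (549 and 419 CPM) was lower and Mir199a-2 did not pass, with a median log2 ratio of -0.08 and sums of 1.15% and 1.31%. In the fibroblast list 3 of 5 genes have 20 consecutive bases in common with another miRNA gene, so reads that fit both are missing. Mir142, Mir146, Mir451a and both endothelial genes also have such a stretch. Mir142 and Mir451a are each overlapped by a miRNA gene on the opposite strand of the same locus. Whether reads of these genes were lost was not tested. The part of these other cell types in the higher level of Mir143 and Mir145a was not tested.

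**Figure D3:**
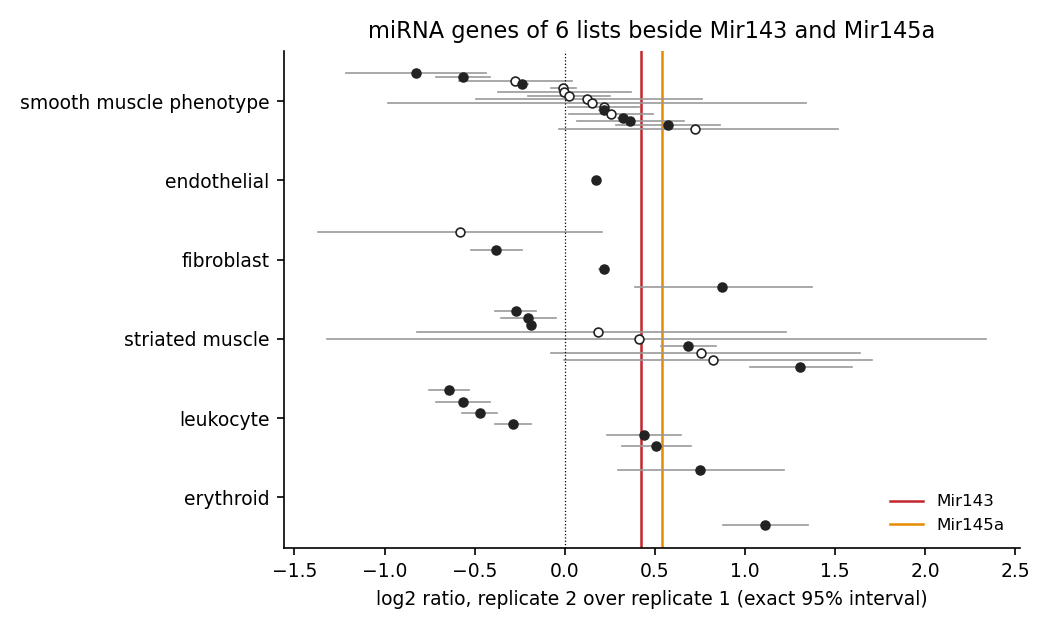
Log2 ratio of replicate 2 over replicate 1 with exact 95% intervals for the tested genes of 6 lists; filled points passed the exact binomial test, and the red and orange lines are Mir143 (0.42) and Mir145a (0.54). The erythroid genes lie to the right of both lines, the endothelial gene Mir126a at 0.17 to their left, and the other lists on both sides of 0.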

How the data were processed

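MicroRNA libraries from gastrocnemius were deposited as raw read counts per miRNA gene on mm10 with GENCODE M21, according to the authors' notes on the files. Aligner and trimming: not given in the sources used here. The 3 count columns per library were taken, from their values, to be unstranded, sense and antisense. The sense column was used, with totals of 1491341 and 2028332, and summary rows were left out.

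CPM used these totals. Log2 ratios and the binomial test used TMM effective library sizes over all gene rows (edgeR 4.0.16, R 4.3.3). Genes with at least 10 summed counts were tested with an exact two-sided binomial test (SciPy 1.17.1) and a threshold of 0.05 after Benjamini-Hochberg adjustment. A quasi-likelihood test needs a contrast, which 1 group does not offer. Intervals are Clopper-Pearson and leave out PCR duplication, so they reflect counting error alone. In counts simulated for replicate 2 over replicate 1 (314 genes tested), the test recovered 21 of 39 genes set to a 1.5-fold change. At 2-fold it recovered 24 of 36 and at 4-fold 37 of 41. It called 1 of 198 unchanged genes. The simulated counts held counting error alone and no further spread between libraries. These rates therefore do not carry over to the real libraries.

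The members and the 6 lists were chosen with earlier results of these data known. Named were the members, the 2 genes above and below Mir143 and Mir145a in mean CPM, miRNA genes within 1 Mb, up to 4 genes with counts per list, the 3 genes closest to Mir143 in ratio and the adjacent pairs beside the members' pair. Mir29a, Mir221, Mir222, Mir208a, Mir208b, Mir133c, Mir223 and Mir142 fall outside this rule and were chosen after their values were seen. Alternatives covered scaling (DESeq2 1.42.0 among them), count minimum, strand column, shared sequence, denominators and the test. Sequences of the loci are not reported here.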

Additional observations from a re-analysis of the deposited data

How the results depend on the processing

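Mir143 and Mir145a were higher in replicate 2 under each scaling, count minimum, strand column and gene set tried, with log2 ratios from 0.37 to 0.44 and from 0.49 to 0.56; the lowest came with DESeq2 size factors and the highest with the column without strand. TMM over the tested genes, chosen after seeing the data, gave 0.37 and 0.49. The edgeR exact negative binomial tests, with common or tagwise dispersion, kept the log2 ratios of 0.42 and 0.54 and called 0 of 313 genes in place of 120, with 15 and 12 under an unadjusted p of 0.05. Their dispersion comes from the same 2 libraries, so these counts are no measure of stability. Other settings called 81 to 123 genes, the fewest where genes with a shared stretch were left out and fewer were tested. The balance of 62 higher and 58 lower genes turned with the scaling, to 53 and 70 (DESeq2), 53 and 66 (upper quartile) and 53 and 68 (TMM over the tested genes). Levels depended on the denominator. Mir143 had 13029 CPM and Mir145a 933 CPM over all reads, 113073 and 8095 CPM over genes without a shared stretch, and 85865 and 6144 CPM with the column without strand. Single libraries ranged from 55093 to 73266 CPM and from 3762 to 5424 CPM. The mean log2 ratio of Mir143 over Mir145a was 3.81 and per base of hairpin 3.97. Mir145b had 2 counts in all and 0 on the opposite strand. Among 29 other named genes, Mir23b and Mir10a, not called at 0.01 and 0.04, changed sign to -0.0386 and -0.0154 (DESeq2), -0.0236 and -0.00039 (upper quartile), and -0.0354 and -0.0122 (TMM over the tested genes). Under these 3 scalings Mir23b passed the exact binomial test and Mir10a did not. Leaving out a library leaves no test.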
